A study of Mus musculus with 6 samples.

Results

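The 8 myosin light chain genes Myl1, Myl2, Myl3, Myl4, Myl6, Myl7, Myl12a and Myl12b were described in hearts of wild-type ICR mouse embryos. They were taken by gene symbol from a table of 31529 genes, and all 8 were present. The hearts were collected at embryonic day 16.5 (E16.5) or at embryonic day 18.5 (E18.5), with 3 libraries of polyadenylated RNA at each stage, which the series' design text describes as biological replicates. All embryos were of the same outbred stock, no treatment or mutation is named, and the sources used here do not say how many hearts or litters a library came from. Each library came from whole-heart tissue, so fewer cells of a type and less RNA per cell cannot be told apart.

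A myosin head carries a regulatory and an essential light chain around its lever arm, and the sarcomeric genes for both come in chamber-specific pairs. In the mouse heart Myl7 encodes the atrial and Myl2 the ventricular regulatory chain, and Myl4 encodes the atrial and Myl3 the ventricular essential chain. Myl1 encodes the essential chains of fast skeletal muscle, Myl6 the essential chain of smooth and nonmuscle myosin, and Myl12a and Myl12b the regulatory chains of nonmuscle myosin, which kinases phosphorylate.

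Among the sarcomeric genes whose ratios are given further on, Myl2 has promoter windows only at starts 7762 and 8227 bases upstream of its main transcript. The promoters shown are therefore those of Myl7 and Myl4, the atrial pair, and of Myl3, the ventricular essential gene. Each holds the 100 bases before the start of the main transcript, read 5′ to 3′ on the gene's own strand, from the RefSeq promoter table on GRCm38.p6. Myl7 lies on the minus strand of chromosome 11 (chr11:5898783-5898882), Myl3 on the plus strand of chromosome 9 (chr9:110763546-110763645) and Myl4 on the plus strand of chromosome 11 (chr11:104550563-104550662). No exon that GENCODE release M21 gives for the same gene overlapped these windows, and exons of other genes were not examined. Capitals mark a CArG box, the binding motif of serum response factor.
Myl7: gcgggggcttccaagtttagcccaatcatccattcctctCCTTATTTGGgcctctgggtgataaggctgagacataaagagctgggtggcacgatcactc
Myl3: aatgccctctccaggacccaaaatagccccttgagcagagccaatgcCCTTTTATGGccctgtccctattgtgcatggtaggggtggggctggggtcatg
Myl4: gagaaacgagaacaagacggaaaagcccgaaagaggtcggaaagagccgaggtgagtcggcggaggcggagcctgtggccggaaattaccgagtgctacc
In Myl7 the motif lay 61 to 52 bases before the start, and in Myl3 it lay 53 to 44 bases before the start. The Myl4 window held none of these letters. Over the RefSeq windows of 250 bases before a start, searched on both strands, 482 of 32817 (1.47%) held a CArG box. Among the 8 light chain genes, matched by 10 windows, 3 held one, namely Myl3, Myl6 and Myl7. The letters GATAA occurred in the windows of Myl2, Myl3, Myl6 and Myl7 and in 22.6% of all windows, and none of these matches overlapped a CArG box. A MEF2 site was in 1.69% of windows and in none of the 8 genes, and GGTGTG was in 16.3% of windows and in none of the 8. The Myl6 window that holds the CArG box belongs to an internal RefSeq start. The windows of Myl1, Myl2 and Myl12b belong to starts 7762 to 11984 bases upstream of the main transcript. The Myl12a window belongs to a start 345 bases downstream of the main start and lies inside the gene. The sequence just before the main start of Myl1, Myl2, Myl12a and Myl12b was thus not searched. A match is a description of the sequence only.

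Expression levels are given as CPM, the estimated counts corrected for library size with trimmed mean of M-values (TMM) factors. The 6 libraries held 61443414 to 77237333 estimated counts each, and the 8 light chain genes took 0.631% to 0.97% of them. The mitochondrial share of counts was, in replicate order, 41.4%, 19.9% and 35% for the E16.5 libraries and 33.5%, 26.7% and 25.2% for the E18.5 libraries. E16.5 replicate 2 therefore stood apart from the other E16.5 libraries, and results that turn on it are also given without it. Adult globin genes took 2.87% of its counts, against 0.762% and 1.43% in the other E16.5 libraries and 0.835% to 2.3% at E18.5. A list of 12 cardiomyocyte genes, among them the troponins Tnnt2 and Tnni3, had summed levels of 22751 to 29234 CPM at E16.5 and of 29505 to 34243 at E18.5, with none at 0. Lung epithelial genes summed to 91.8 to 158 CPM at E16.5 and 86.2 to 154 at E18.5.

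No light chain gene passed the test between the stages. Of 19959 genes tested with edgeR, 30 (0.150%) passed a Benjamini-Hochberg adjusted p of 0.05, and 0 of the 8 light chain genes were among them. All 8 had passed the filter on low counts. At an unadjusted p under 0.05 there were 1903 genes (9.53%), and 1 of the 8, Myl1. With DESeq2, 343 of 21718 genes (1.58%) passed, and 1 of the 8, again Myl1. The E18.5 libraries lay wholly above the E16.5 libraries in 1686 genes (8.45%) and in 1 of the 8, Myl1. The log2 change was above 0 in 7 of the 8, with a median of 0.30, against 49.8% of all tested genes and a median of -0.0019. The list of 12 cardiomyocyte genes had 10 above 0 and a median of 0.28, so this lean is not particular to the light chains.

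**Figure D1:**
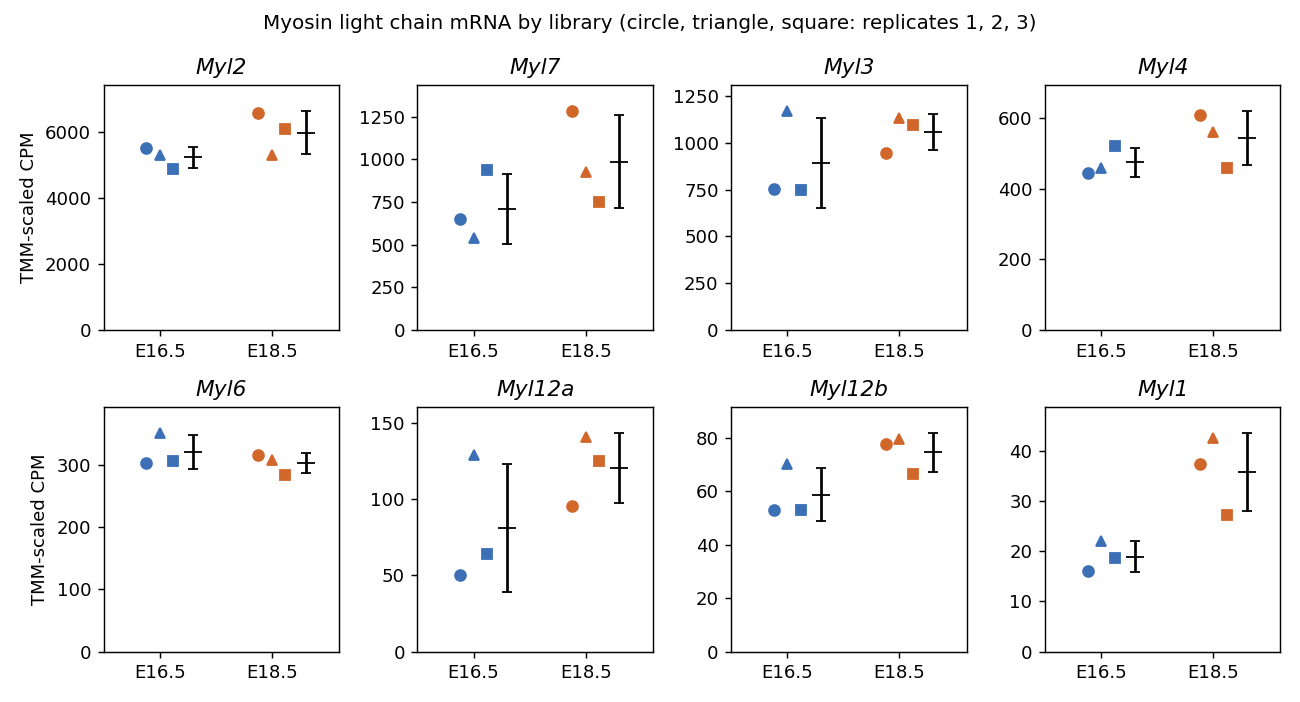
TMM-scaled CPM (linear axes from 0, a separate scale for each gene) of the 8 light chain genes in each library, with the mean and SD of 3 libraries beside the points. The stages overlap in 7 genes, and in Myl1 the 3 E18.5 libraries (27.3 to 42.6) lie above the 3 E16.5 libraries (16.1 to 22.1).

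The ventricular regulatory gene Myl2 (ENSMUSG00000013936, GRCm38 chr5:122100951-122113472, plus strand) encodes the regulatory chain that ventricular myosin carries. In replicate order, its E16.5 libraries were at 5501, 5284 and 4873 CPM and its E18.5 libraries at 6565, 5282 and 6065 CPM. The stages overlapped, since E18.5 replicate 2 lay below 2 of the E16.5 libraries. The means were 5219 ± 319 and 5971 ± 647 (SD, n = 3 each), a log2 change of 0.19 ± 0.17 (SE) with an edgeR adjusted p of 0.731. The 95% interval of the fold ran from 0.876 to 1.49.

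The atrial regulatory gene Myl7 (ENSMUSG00000020469, GRCm38 chr11:5896637-5898782, minus strand) had 652, 536 and 935 CPM in its E16.5 libraries and 1282, 927 and 748 CPM in its E18.5 libraries, in replicate order. The highest E16.5 library lay above 2 of the E18.5 libraries, and libraries of 1 stage differed by up to 1.74 times. The means were 708 ± 205 and 986 ± 272 (SD, n = 3 each). The log2 change was 0.48 ± 0.26 (SE), with an edgeR adjusted p of 0.595 and a 95% interval of the fold from 0.918 to 2.11.

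The ventricular essential gene Myl3 (ENSMUSG00000059741, GRCm38 chr9:110741861-110769798, plus strand) was at 755, 1169 and 749 CPM at E16.5 and at 948, 1130 and 1093 CPM at E18.5, in replicate order. E16.5 replicate 2 was the highest of all 6, and the stages overlapped through that library. The means were 891 ± 241 and 1057 ± 96.6 (SD, n = 3 each), a log2 change of 0.25 ± 0.21 (SE) with an edgeR adjusted p of 0.724. Without E16.5 replicate 2 the log2 change of Myl3 was 0.49, with an edgeR adjusted p of 0.0742. In that fit 371 genes passed over the whole table, against 30 with all 6 libraries.

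The atrial essential gene Myl4 (ENSMUSG00000061086, GRCm38 chr11:104550663-104595753, plus strand) was at 444, 460 and 521 CPM at E16.5 and at 610, 561 and 460 CPM at E18.5, in replicate order. E18.5 replicate 3 lay among the E16.5 libraries. The means were 475 ± 40.6 and 544 ± 76.6 (SD, n = 3 each), a log2 change of 0.20 ± 0.16 (SE) with an edgeR adjusted p of 0.716 and a 95% interval of the fold from 0.889 to 1.47.

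Myl1 (ENSMUSG00000061816, GRCm38 chr1:66924295-66945404, minus strand), the fast skeletal essential gene, was at 16.1, 22.1 and 18.6 CPM at E16.5 and at 37.4, 42.6 and 27.3 CPM at E18.5, in replicate order. Every E18.5 library lay above every E16.5 library. The means were 18.9 ± 3.02 and 35.8 ± 7.81 (SD, n = 3 each). The fold was 1.89 with a 95% interval from 1.38 to 2.58, and the log2 change of 0.92 ± 0.20 (SE) had an unadjusted p of 0.00149 and did not pass correction (edgeR adjusted p = 0.185). DESeq2 called it, with an adjusted p of 0.00657, and it was the single alternative of 15 that did. Without E16.5 replicate 2 its edgeR adjusted p was 0.0501, in a fit where 371 genes passed over the whole table, against 30 in the main fit.

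Markers of skeletal muscle were set beside Myl1. Of 19 listed genes 17 were in the table and 11 were tested, 5 with a log2 change above 0 and 6 below. Of the 11, 0 had an unadjusted p under 0.05 in edgeR, against 9.53% of all tested genes. Their median log2 change was -0.30. Their summed levels were 32.3 to 42.2 CPM at E16.5 and 23.7 to 45.8 at E18.5, so the stages overlapped. The defining transcription factors Myf5, Myf6 and Pax7 were below the count filter, and Myog, which drives myoblast differentiation, was at 0.51 to 1.26 CPM at E16.5 and 0.483 to 0.885 at E18.5. Mylpf, the fast skeletal regulatory light chain, was at 4.48, 3.98 and 3.07 CPM at E16.5 and, at E18.5, 3.57, 2.45 and 1.64, with a log2 change of -0.59 and an edgeR adjusted p of 0.6. A processed pseudogene, Mylf-ps, matches 421 bases of the Myl1 transcript at 99.3% identity and held 3369 counts against 11407 for Myl1. With both summed, the log2 change was 0.836 ± 0.182 (SE) and the edgeR adjusted p was 0.185.

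Myl6 (ENSMUSG00000090841, GRCm38 chr10:128490860-128494145, minus strand), the smooth and nonmuscle essential gene, had a narrow spread. It was at 303, 351 and 306 CPM at E16.5 and at 315, 308 and 284 CPM at E18.5, in replicate order. The stages overlapped, with means of 320 ± 27 and 303 ± 16.1 (SD, n = 3 each). The log2 change was -0.081 ± 0.14 (SE) with an edgeR adjusted p of 0.866, and the 95% interval of the fold, 0.762 to 1.17, was the narrowest of the 8. Its sign was positive in limma on FPKM values, at 0.028 on the log2 scale. Summing it with its 5 near-identical pseudogenes gave -0.087 ± 0.136 (SE).

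The nonmuscle regulatory genes Myl12a (ENSMUSG00000024048, GRCm38 chr17:70993656-71002878) and Myl12b (ENSMUSG00000034868, GRCm38 chr17:70973133-70990890) are neighbours on the minus strand and share 96.5% of 516 coding bases. Myl12a was at 50, 129 and 64.1 CPM at E16.5 and at 95.6, 141 and 125 CPM at E18.5, in replicate order. E16.5 replicate 2 lay above 2 of the 3 E18.5 libraries, and the E16.5 libraries differed by 2.57 times, the widest spread within a stage among the 8. The means of Myl12a were 81 ± 42 and 121 ± 23.2 (SD, n = 3 each), with a log2 change of 0.57 ± 0.33 (SE) and an edgeR adjusted p of 0.612. Without E16.5 replicate 2 the log2 change of Myl12a was 1.08 and the edgeR adjusted p was 0.0447, so this library decided the call. Leaving it out raised the genes that passed over the whole table from 30 to 371, so this is not particular to Myl12a.

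Myl12b was at 53, 70 and 53.1 CPM at E16.5 and at 77.8, 79.6 and 66.3 CPM at E18.5, in replicate order. The stages overlapped only where E16.5 replicate 2 exceeded E18.5 replicate 3. The means were 58.7 ± 9.76 and 74.6 ± 7.21 (SD, n = 3 each), a log2 change of 0.35 ± 0.16 (SE) with an edgeR adjusted p of 0.532. Without E16.5 replicate 2 the log2 change of Myl12b was 0.49, with an edgeR adjusted p of 0.0718, in the fit where 371 genes passed. Both genes are uncertain, because reads can be divided between them and a gene listed as Gm49909 (ENSMUSG00000117098), which overlaps both on the same strand. GENCODE release M21 names this locus Myl12b as well, and it held 17149 counts over the 6 libraries against 27893 for Myl12b. Gm49909 held 1115, 5310 and 1506 counts at E16.5 and, at E18.5, 1784, 3789 and 3645, in replicate order, and was highest in E16.5 replicate 2. Myl12a also overlaps Myom1 on the other strand, over 208 bases of its transcript. Myom1 held 469436 counts over the 6 libraries against 42682 for Myl12a. No source used here says if reads were counted by strand. The sum of Myl12a, Myl12b, Gm49909 and 2 pseudogenes was 121.2, 264.3 and 139.2 CPM at E16.5 and, at E18.5, 200.4, 275.1 and 245.3. The sum kept E16.5 replicate 2 above 2 of the E18.5 libraries, with a log2 change of 0.458 ± 0.289 (SE) and an edgeR adjusted p of 0.639.

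**Figure D2:**
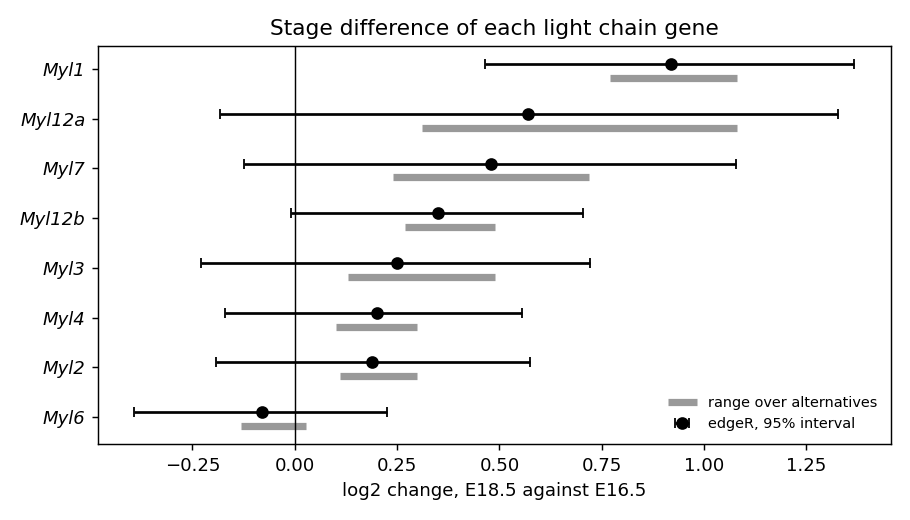
Log2 change from E16.5 to E18.5 of each light chain gene (points, edgeR, with the 95% interval) and the range of its value over 14 or 15 alternative settings (grey bars). The interval of Myl1 lies above 0 before correction over all genes, those of the other 7 cross 0, and the Myl12a bar reaches 1.08 without E16.5 replicate 2.

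Light chain levels were set beside the mitochondrial share of the library. The libraries with a share above 30% (E16.5 replicates 1 and 3 and E18.5 replicate 1) held 749 to 948 CPM of Myl3, and the other 3 held 1093 to 1169. For Myl12a the same libraries held 50 to 95.6 CPM and 125 to 141. In these 2 of the 8 the libraries above 30% lay wholly below the others. The same held for 3079 of 19959 tested genes (15.4%), and 3034 (15.2%) lay wholly above, with 0 of the 8 among them. The division at 30% was chosen after the values were seen, so nothing particular to Myl3 and Myl12a is read from this count.

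Within the libraries above 30% the log2 difference of Myl3 between the stages was 0.33, and within those below it was -0.073. The corresponding differences of Myl12a were 0.76 and 0.044. Myl7 gave 0.72 and 0.64, Myl1 gave 1.11 and 0.62, Myl2 gave 0.34 and 0.10, and Myl4 gave 0.34 and 0.14. Myl12b gave 0.55 and 0.054, and Myl6 gave 0.051 and -0.25. Each of these differences has 1 library on one side and no test. With the mitochondrial share as a term in edgeR, the log2 change was 0.16 for Myl3 (adjusted p = 0.439), 0.45 for Myl12a (adjusted p = 0.0857), 0.58 for Myl7 (adjusted p = 0.222) and 0.88 for Myl1 (adjusted p = 0.0678). The red-cell gene Hbb-bs also moved with this share, at 347, 2351 and 359 CPM at E16.5 and, at E18.5, 478, 2634 and 2536, in replicate order. Its part in the light chain values was not tested.

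**Figure D3:**
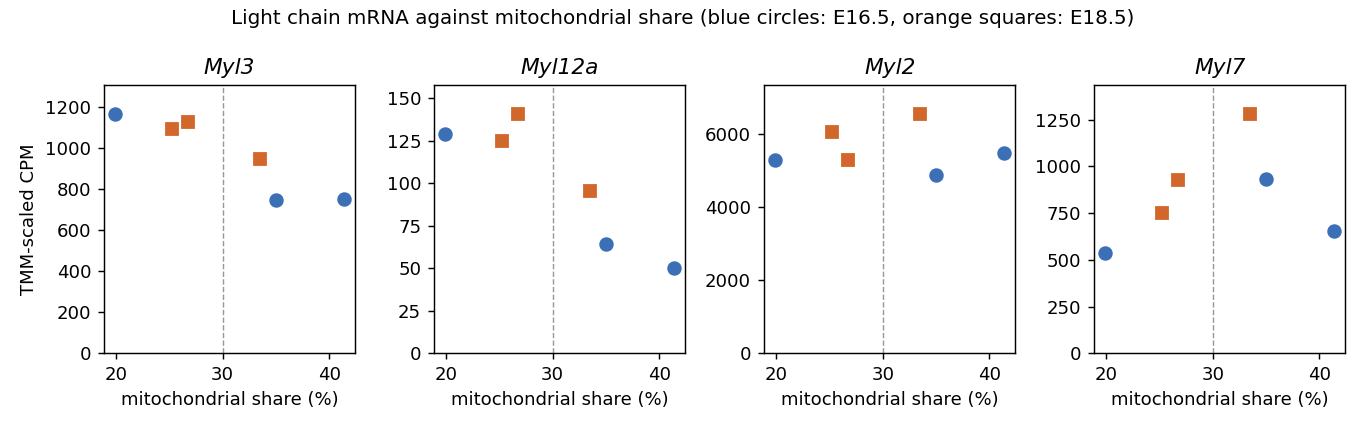
TMM-scaled CPM of Myl3, Myl12a, Myl2 and Myl7 (linear axes from 0) against the percent of counts from mitochondrial genes, with 1 point for each of the 6 libraries and a dashed line at 30%. Myl3 and Myl12a are lower in the 3 libraries above 30% than in the 3 below, and Myl2 and Myl7 overlap across the line.

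The genes whose library pattern came closest to each sarcomeric chain were ranked by the mean absolute difference of centred log2 CPM over 6 libraries, among 5810 genes. For Myl7 they were Sult1a1 (0.0543), Gngt2 (0.103) and Cisd3 (0.11), against a median over genes of 0.372. Sult1a1, a sulfotransferase, was at 11.9, 10.4 and 18.2 CPM at E16.5 and, at E18.5, 27.2, 18.9 and 14.9, in replicate order, with E18.5 replicate 1 the highest as in Myl7. For Myl4 they were Gm13192 (0.0532), Gm42688 (0.0541) and Arl1 (0.0558), with a median of 0.221. For Myl2 they were Ginm1 (0.0306), Ilk (0.0331) and Mrpl47 (0.0403), with a median of 0.211. For Myl3 they were Ubqln1 (0.0274), Gm15387 (0.0318) and Vps29 (0.0348), with a median of 0.27. Ubqln1, a ubiquitin-binding shuttle protein, had the Myl3 pattern with 27.1, 41.4 and 25.5 CPM at E16.5 and, at E18.5, 32.6, 38.8 and 37.1, in replicate order. None of these lists names the partner chain of the same chamber. With only 3 of 5810 genes named per member, they cannot show whether partner chains vary together.

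By CPM per kilobase of the main transcript the order was Myl2 (mean over 6 libraries 8451), Myl7 (1435), Myl3 (1039), Myl4 (579), Myl6 (468), Myl12a (125), Myl12b (66.6) and Myl1 (34.1). The ranges over libraries of Myl7 and Myl3, of Myl4 and Myl6, of Myl12a and Myl12b, and of Myl12b and Myl1 overlapped. Within a library, Myl7 was above Myl3 in 5 of 6 libraries and Myl4 above Myl6 in 5 of 6. Myl12a was above Myl12b, and Myl12b above Myl1, in 6 of 6. In FPKM, Myl12a was above Myl12b in 4 of 6 libraries. The deposited FPKM gave the same order, with means of 2660 for Myl2, 1313 for Myl7, 452 for Myl3 and 102 for Myl4, but different distances.

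The gene length implied by the FPKM values was close to the union of all annotated exons. For Myl7, with 1 annotated transcript, the union was 590 bases and equal to the main transcript. For Myl4, with 8 transcripts, it was 4637 bases against 879, or 5.28 times as long. The other 6 genes lay between 2.18 times (Myl3) and 4.79 times (Myl6). The FPKM of Myl7 is thus set against values of the others that are divided by a longer length.

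**Figure D4:**
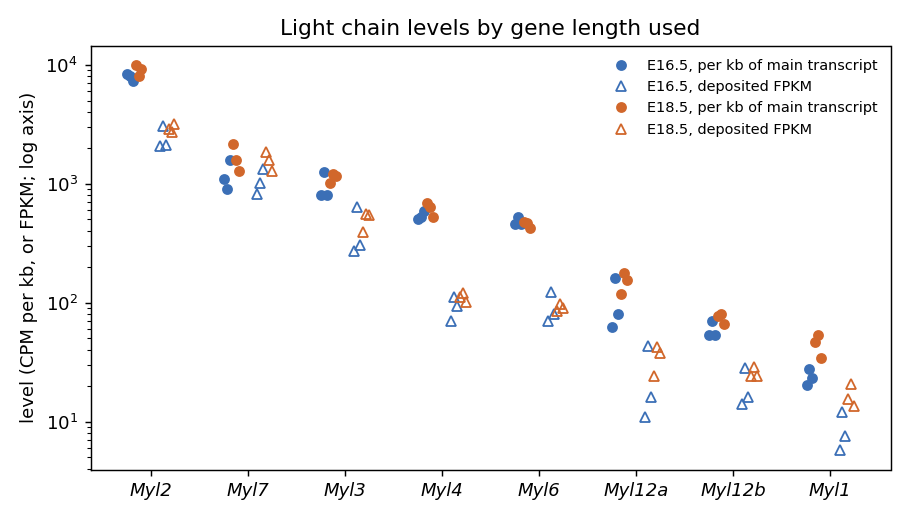
Levels of the 8 light chain genes on a log axis, as CPM per kilobase of the main transcript (filled circles) and as deposited FPKM (open triangles), 1 symbol for each library. The order is the same on both scales, and Myl7 lies closer to Myl2 in FPKM (means 1313 and 2660) than per main transcript (1435 and 8451).

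The ratio of the atrial to the ventricular regulatory gene, Myl7 to Myl2 in FPKM, asks whether the atrial share of the regulatory chains moved with stage. The E16.5 libraries had ratios of 0.392, 0.335 and 0.634 and the E18.5 libraries 0.646, 0.58 and 0.408, in replicate order. The stages overlapped, with a log2 difference of 0.29 and an exact two-sided permutation p of 0.4 (n = 3 each), where 0.1 is the smallest p that 3 against 3 can give. Without E16.5 replicate 2 the log2 difference was 0.10, and without E16.5 replicate 3 it was 0.56. By main transcript length, Myl7 made up 11.7%, 10.2% and 17.7% of the pair at E16.5 and, at E18.5, 18%, 16.5% and 12.2%, in replicate order. In FPKM the same shares were 28.2%, 25.1% and 38.8% at E16.5 and, at E18.5, 39.2%, 36.7% and 29%. The share thus depended strongly on the length used, in every library.

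The atrial to ventricular essential ratio, Myl4 to Myl3 in FPKM, was 0.259, 0.174 and 0.307 at E16.5 and, at E18.5, 0.284, 0.219 and 0.185, in replicate order. The stages overlapped, with a log2 difference of -0.086 and an exact permutation p of 0.8 (n = 3 each). Without E16.5 replicate 2 the log2 difference of Myl4 to Myl3 was -0.32, and without E16.5 replicate 3 it was 0.0914. By main transcript length Myl4 made up 38.5%, 29.6% and 42.6% of the pair at E16.5 and, at E18.5, 40.7%, 34.6% and 31%. In both pairs the lowest atrial share was in E16.5 replicate 2, and in both E16.5 replicate 3 and E18.5 replicate 1 held the highest values.

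The regulatory to essential ratio, Myl2 and Myl7 over Myl3 and Myl4 in FPKM, was 8.44, 5.39 and 8.53 at E16.5 and, at E18.5, 9.31, 6.35 and 6.91, in replicate order. The log2 difference was 0.024 with an exact permutation p of 1 (n = 3 each). By main transcript length the ratio ran from 5.02 to 7.18 over the 6 libraries, so regulatory transcripts exceeded essential transcripts in each of them. The sign of the stage difference turned with the length used, to -0.0108 by main transcript. The Myl12a to Myl12b ratio in FPKM was 0.777, 1.52 and 0.995 at E16.5 and, at E18.5, 1.01, 1.46 and 1.55. Its log2 difference was 0.32, with an exact permutation p of 0.4 (n = 3 each). Without E16.5 replicate 2 the log2 difference of Myl12a to Myl12b was 0.59, and without E16.5 replicate 1 it was 0.10. Adjusted over the 4 ratios, the exact permutation p-values were 0.8 for Myl7 to Myl2, 1 for Myl4 to Myl3, 1 for regulatory to essential and 0.8 for Myl12a to Myl12b.

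**Figure D5:**
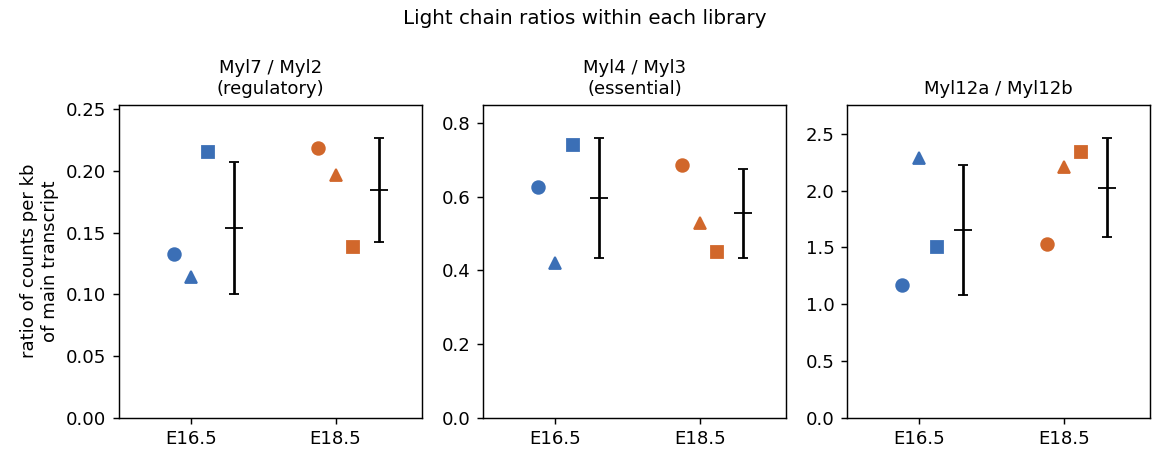
Ratios within each library from counts per kilobase of the main transcript (linear axes from 0; circle, triangle and square are replicates 1, 2 and 3; blue E16.5, orange E18.5), with mean and SD of 3 libraries. The stages overlap in all 3 ratios, with Myl7 to Myl2 from 0.114 to 0.219 and Myl4 to Myl3 from 0.42 to 0.741.

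Other atrial genes were set beside Myl7 and Myl4. Of 12 atrial markers, 0 passed correction in edgeR, 9 had a log2 change above 0, and 7 had an unadjusted p under 0.05 in the higher direction. In the lower direction there was 1, Nr2f1, with a log2 change of -0.52. Of all tested genes, 9.53% had an unadjusted edgeR p under 0.05 in either direction. The E18.5 libraries of the atrial markers lay wholly above the E16.5 libraries in 6 of 12, against 8.45% of all tested genes. Their summed levels were 968 to 1487 CPM at E16.5 and 2541 to 2606 at E18.5, which did not overlap, whereas Myl7 and Myl4 overlapped. Most of each sum was Nppa alone, at 757 to 1228 CPM at E16.5 and 2184 to 2284 at E18.5. Nppa, the atrial natriuretic peptide gene, had a log2 change of 1.10 ± 0.20 (SE, edgeR adjusted p = 0.147), and Sln, the atrial calcium pump inhibitor sarcolipin, 1.16 ± 0.20 (SE, edgeR adjusted p = 0.129). Fgf12, with 1.78 ± 0.25 (SE), came nearest to the threshold (edgeR adjusted p = 0.0512). The difference between these genes and Myl7 was not tested. Of 7 ventricular markers 6 had a log2 change below 0 and 0 passed correction. Their sums were 12296 to 14379 CPM at E16.5 and 10847 to 13402 at E18.5. Most of each of these sums was Myh7 alone, at 10858 to 13423 CPM at E16.5 and 9756 to 12467 at E18.5.

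The genes that act on light chains or carry them were taken from partner lists, and 0 genes of any of these lists passed correction in edgeR. Of 3 tested other light chains, 2 were above 0 and 1 below. Myl9, the smooth muscle regulatory chain, was at 305, 430 and 343 CPM at E16.5 and at 493, 561 and 502 at E18.5, in replicate order. Its stages did not overlap, with a log2 change of 0.53 ± 0.17 (SE) and an edgeR adjusted p of 0.366. The smooth muscle list, which includes Myl9, was above 0 in 10 of 10 genes, with sums of 937 to 966 CPM at E16.5 and 1308 to 1352 at E18.5, and 0 passed correction. Fibroblast markers, such as the collagen gene Col1a1, were above 0 in 8 of 8 genes with a median log2 change of 0.46, and 0 passed correction. Their sums were 2261 to 3573 CPM at E16.5 and 3806 to 4994 at E18.5, which did not overlap. Fibroblasts carry nonmuscle myosin, and the part of these cells in the values of Myl6, Myl12a and Myl12b was not tested. Of 10 epicardial markers 1 passed, Krt19, a keratin (log2 change 1.23, edgeR adjusted p = 0.0219), against 0.150% of all tested genes.

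Among 12 kinases of the regulatory chain and calmodulins, 10 were above 0 with a median log2 change of 0.18. In edgeR 2 had an unadjusted p under 0.05, against 9.53% of all tested genes. Mylk3, the cardiac light chain kinase, was at 114 ± 18.6 and 126 ± 9.02 CPM (SD, n = 3 each; log2 change 0.15, edgeR adjusted p = 0.778), and Cdc42bpb, a kinase of nonmuscle light chains, was at 90.9 ± 7.79 and 116 ± 6.12 CPM (log2 change 0.35, edgeR adjusted p = 0.438). Of 7 myosin phosphatase genes, 5 were above 0 with a median of 0.055. Ppp1cb, its catalytic subunit, had a log2 change of 0.23 with an edgeR adjusted p of 0.65. Ppp1r12b, a targeting subunit of muscle, was at 51.1 ± 6.06 and 51.3 ± 4 CPM (SD, n = 3 each).

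Of 9 heavy chains, 5 were above 0 and 4 below, with a median log2 change of 0.04. Myh6, the alpha heavy chain, was at 8968 ± 2878 and 10770 ± 2327 CPM (SD, n = 3 each; log2 change 0.26, edgeR adjusted p = 0.782). Myh7, the beta heavy chain, was at 12433 ± 1379 and 11086 ± 1356 CPM (log2 change -0.17, edgeR adjusted p = 0.793). Myh11, the smooth muscle heavy chain, had a log2 change of 1.79 ± 0.47 (SE) without overlap and an edgeR adjusted p of 0.278. Myosin assembly genes, 5 in number, had 2 above 0 and 3 below. Smyd1, a methyltransferase of sarcomere assembly, was at 173 ± 11.1 and 197 ± 8.94 CPM (SD, n = 3 each; log2 change 0.18, edgeR adjusted p = 0.672). Of 10 chamber factors 7 were below 0, with a median of -0.13. At an unadjusted edgeR p under 0.05, 3 were lower, against 9.53% of all tested genes in either direction. These 3 were Nkx2-5, the cardiac homeobox factor (log2 change -0.40, edgeR adjusted p = 0.471), Hey2, a ventricular repressor (-0.37, adjusted p = 0.461), and Nr2f1, an atrial nuclear receptor (-0.52, adjusted p = 0.435).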

How the data were processed

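RNA was poly(A)-selected and adapters carried unique molecular identifiers, per the labels' protocols. Per the submitters' processing notes, cutadapt 1.9, HISAT2 2.0.4, UMI-tools and StringTie 1.3.4d were used, with no role or order given. The authors deposited estimated counts and FPKM values per gene and library, per the file headers. In 6 of 6 low values the FPKM implied less than the listed count. No library pair had identical counts. Deposited coordinates were of another build, so positions come from GENCODE M21 on GRCm38.

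Stages were compared with edgeR 4.0.16 (quasi-likelihood test, filterByExpr, TMM) in R 4.3.3 on the deposited counts. P-values were adjusted over 19959 genes. DESeq2 1.42.0 and limma 3.58.1 on log2(FPKM + 1) were alternatives. Ratios used exact two-sided permutation tests over libraries. Likeness was ranked among tested genes with a mean FPKM of at least 5. Copies were transcripts with at least 90% identity over 150 bases.

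Named genes were the 8 light chains and, from each partner list, genes passing correction, or else the 2 of smallest p and the 2 of highest mean FPKM. Other genes named from the marker and partner lists were chosen after their values were seen. The members and lists were chosen with earlier results of these data known.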

Additional observations from a re-analysis of the deposited data

How the results depend on the processing

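The log2 changes of Myl1, Myl2, Myl3, Myl4, Myl7, Myl12a and Myl12b kept their sign under every setting tried, 14 settings for Myl12b and 15 for the others. Myl6 turned from -0.0806 to 0.0283 in limma on log2(FPKM + 0.1) and to 0.0277 on log2(FPKM + 1). Light chain genes past the threshold numbered 0, and 1 with DESeq2 (Myl1) or without E16.5 replicate 2 (Myl12a), so leave-one-out gave 0 to 1. Over all genes 30 passed, against 343 with DESeq2, 14 and 10 in limma with pseudocounts of 0.1 and 1, 184 with the mitochondrial share as a term, and 8 to 371 leaving out 1 library, 371 without E16.5 replicate 2. The cause was not tested.

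Leaving out 1 library moved the log2 difference of Myl7 to Myl2 from 0.29 to between 0.10 and 0.56, and that of Myl12a to Myl12b from 0.32 to between 0.10 and 0.59. The Myl4 to Myl3 log2 difference of -0.086 ran from -0.32 to 0.0914 leaving out 1 library. It was -0.32 without E16.5 replicate 2, 0.0914 without E16.5 replicate 3 and 0.056 without E18.5 replicate 3. The regulatory to essential difference of 0.0244 was -0.0108 per kilobase of the main transcript (chosen after seeing the data), -0.0158 from counts, and -0.19 to 0.14 leaving out 1 library, with -0.19 without E16.5 replicate 2 and -0.14 without E18.5 replicate 1.

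Same-numbered libraries of the 2 stages had correlated deviations of 0.102, 0.185 and -0.0663, so the numbers do not show pairing. E18.5 replicate 1 correlated best with E16.5 replicate 3 (0.164), so not every library correlated best with its own number. With the replicate block 43 genes passed and 0 light chain genes, and Myl1 had a log2 change of 0.90 (edgeR adjusted p = 0.0993). The common biological coefficient of variation was 34.3%.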
